A study of Mus musculus with 384 samples.

Results

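The 84 genes described here encode the proteins of the cytosolic ribosome and their close relatives, out of 23420 gene symbols in the deposited table. They were chosen by symbol alone: Rpl or Rps followed by a number, with an optional a, x, y or l and further digits, plus Rplp0, Rplp1, Rplp2 and Rpsa. By symbol, 33 belong to the small subunit (Rps and Rpsa) and 51 to the large subunit (Rpl and Rplp). Of these, 6 carry a symbol with an l for "like" (Rpl3l, Rpl7l1, Rpl10l, Rpl22l1, Rpl39l and Rps27l). Rps4y2 is listed in RefSeq as Rps4l, a transcribed pseudogene on chromosome 6. Mitochondrial ribosomal proteins (Mrpl, Mrps) are not members. A filter on low values, detection in at least 10% of kept cells of any plate, passed 81 members. It left out Rpl3l, Rpl10l and Rpl39l.

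T cells were sorted from B16F10 tumours, a transplantable melanoma of the C57BL/6 mouse, and single cells were profiled with Smart-seq2, a plate method that reads full-length cDNA without molecular identifiers. The 4 plates hold wild-type CD8 cells, CD8 cells labelled IL27raKO, wild-type CD4 cells and CD4 cells labelled IL27raKO, and every plate has 94 wells of 1 cell, a well of pooled cells (population) and a well without a cell. IL27raKO mice lack a working gene for the specific chain of the receptor of the cytokine IL-27. The titles name 1 source per genotype, WT4 and KO4, read here as supplying both cell types, so genotype label, source and plate cannot be told apart. No plate holds both cell types, so each comparison of CD4 with CD8 cells is also one between plates. A p number in the titles is the same on both CD8 plates and is another on each CD4 plate. The titles do not explain it. Plates were grouped by title, which gives CD4 for 2 of them, although the treatment label mentions CD8+ cells throughout. Il27ra, the targeted gene, was detected on every plate. Its detection was 51.4% (wild type) and 57.1% (labelled knockout) on the CD8 plates, and 36.5% and 47.4% on the CD4 plates. Its population values were 155.37, 92.9, 244.63 and 133.37 FPKM in the same order, lower under the knockout label in both cell types. A value per gene does not show which exons were read, so the labels are not checked by it, and each comparison by genotype below is one of libraries so labelled.

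Kept cells were those with 1000 or more genes at 1 FPKM (read fragments scaled to transcript length and library size) or more. By plate these were, out of 94 each, 72 wild-type CD8 cells, 77 CD8 cells labelled knockout, 74 wild-type CD4 cells and 78 CD4 cells labelled knockout. Median detected genes per cell ran from 2047 to 2530.5 over the plates, and the wild-type CD8 plate was highest. Cd4 was detected in 89.2% and 91.03% of cells on the CD4 plates and in 0.0% and 1.30% on the CD8 plates, and Cd8a in 84.7% and 81.8% on the CD8 plates and in 2.70% and 0.0% on the CD4 plates, wild type given before knockout. Tyr, a melanoma gene, was detected in 97.4% or more of cells on every plate and was not used as a marker. Any of 8 other melanoma markers was present in 27.8%, 11.7%, 29.7% and 8.97% of cells (wild-type CD8, CD8 labelled knockout, wild-type CD4, CD4 labelled knockout). Their summed level had a median of 0 FPKM on each plate and a highest value of 15632, 978, 2449 and 539 FPKM, with Sox10 at 0 on both plates labelled knockout. The 5 genes listed as NK cell markers were Ncr1, Klrb1c, Klra8, Gzma and Eomes. Any of them was present in 43.1% and 32.5% of CD8 cells and 8.11% and 3.85% of CD4 cells, with Ncr1 at 0 in every cell. These shares were not split by gene and do not count NK cells. Any of 16 myeloid markers was present in 34.7%, 24.7%, 24.3% and 23.1% of cells, with S100a8 and S100a9 at 0 on all 4 plates. The summed myeloid level had a median of 0 FPKM on each plate, a mean of 421.5, 170.5, 2770 and 868 FPKM and a highest value of 11857, 3410, 144604 and 49236 FPKM. The part of these markers in the results was not tested. The deposited values are FPKM with no read counts, so the number of reads behind a value is unknown.

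A ribosome joins a small subunit, which reads the messenger RNA, to a large subunit, which forms the peptide bond. One copy of nearly every ribosomal protein goes into each ribosome, so their genes are expressed together and at high level, and T cells raise ribosome production when they are activated and grow. Many of their messenger RNAs start with a run of pyrimidines, the 5′ terminal oligopyrimidine (TOP) tract, through which the mTOR pathway controls their translation. Mammalian genomes also hold many processed pseudogenes of these genes.

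Sequence around the start site was taken from RefSeq (GRCm38.p6), which had an entry for 63 of the 84 members. CTTTCC, searched on the gene's strand from 30 bases before to 30 bases after the start, occurred in 12 of the 63 (19.05%) and in 3.25% of the 17491 genes with an entry. CCGGAAG, a core of sites for ETS factors, searched on both strands from 250 bases before to 50 after the start, occurred in 26 members (41.3%) and in 12.9% of all genes. GGGCGG, an Sp1 core searched in the same window and strands, occurred in 39 members (61.9%) and in 49.2% of all genes. The first 5 windows that follow hold the pyrimidine motif, and the last 3 belong to l-type relatives without it (for Rps27l, which has 2 listed starts, the upstream one). They are chosen examples and not a split by kind of gene. Most of the 63 members lack the motif, and the l-type Rpl39l holds it. Each shows 30 bases before and 20 bases from the start site, 5′ to 3′ on the gene's strand, and capitals mark CTTTCC and CCGGAAG.
Rpl15 (chr14:18270967-18271016, minus strand): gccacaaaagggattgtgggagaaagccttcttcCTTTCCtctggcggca
Rpl28 (chr7:4792935-4792984, plus strand): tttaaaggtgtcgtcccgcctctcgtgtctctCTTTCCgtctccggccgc
Rpl38 (chr11:114668550-114668599, plus strand): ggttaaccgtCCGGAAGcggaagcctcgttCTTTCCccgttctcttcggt
Rps10 (chr17:27635225-27635274, minus strand): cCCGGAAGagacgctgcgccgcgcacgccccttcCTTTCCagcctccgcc
Rps27 (chr3:90213629-90213678, minus strand): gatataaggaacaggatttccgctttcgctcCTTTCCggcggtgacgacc
Rpl22l1 (chr3:28805478-28805527, plus strand): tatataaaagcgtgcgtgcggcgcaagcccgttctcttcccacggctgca
Rps27l (chr9:66946056-66946105, plus strand): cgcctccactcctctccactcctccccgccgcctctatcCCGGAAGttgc
Rpl7l1 (chr17:46782637-46782686, minus strand): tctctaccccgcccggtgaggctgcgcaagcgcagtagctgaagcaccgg
In Rpl15, Rpl28, Rpl38, Rps10 and Rps27 the motif lies close to the start, within a longer stretch of C and T. The Rpl22l1 window also has a stretch of C and T at the start, without the motif. A match describes these letters and is not a mapped factor site or a mapped transcript start. Over the tested members with an entry, the median CD4 minus CD8 difference described further on was -1.31 log2 for the 11 with CTTTCC and -0.97 log2 for the 49 without. It was -1.27 log2 for the 25 with CCGGAAG and -0.90 log2 for the 35 without, and -0.93 log2 for the 38 with GGGCGG and -1.13 log2 for the 22 without. These splits are descriptions, with no test.

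The members took a large share of each library, and the share was lower on the CD4 plates. In wild-type CD8 cells the 84 genes held a lowest of 1.30%, a median of 14.2% and a highest of 31.8% of the cell's summed FPKM, with a mean of 14.8% ± 6.14 (SD, n = 72 cells). CD8 cells labelled knockout ran from 6.23% through a median of 17.2% to 34.4%, with a mean of 16.8% ± 5.68 (SD, n = 77 cells). Wild-type CD4 cells ran from 1.11% through 11.01% to 29.1%, with a mean of 12.05% ± 5.23 (SD, n = 74 cells). CD4 cells labelled knockout ran from 0.843% through 10.99% to 22.02%, with a mean of 11.01% ± 4.49 (SD, n = 78 cells). Cells of all plates overlapped widely, while both CD8 plate means lay above both CD4 plate means. Shares of summed FPKM weight each gene per length, so they are not shares of RNA molecules or reads.

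The population libraries, 1 per plate, gave the same order of cell types with higher shares: 20.5% and 21.0% in CD8 and 13.8% and 13.52% in CD4, wild type before knockout. The mean over the CD4 plates was 4.29 percentage points under that of the CD8 plates in single cells, a difference of -4.29 with a spread of 1.13 between plates of a cell type (pooled SD, 2 plates each). In the population libraries it was -7.09 points with a spread of 0.255. With 2 plates against 2, an exact permutation test (two-sided) cannot go below 0.333, and it gave that value for both. More than 20% of summed FPKM lay in the members for 10 of 72 wild-type CD8 cells (13.9%, exact 95% interval 6.87 to 24.1). It did for 23 of 77 CD8 cells labelled knockout (29.9%, interval 19.97 to 41.4). On the CD4 plates 5 of 74 wild-type cells did so (6.76%, interval 2.23 to 15.1), as did 3 of 78 labelled knockout (3.85%, interval 0.80 to 10.8). These intervals cover counting error over cells only.

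**Figure D1:**
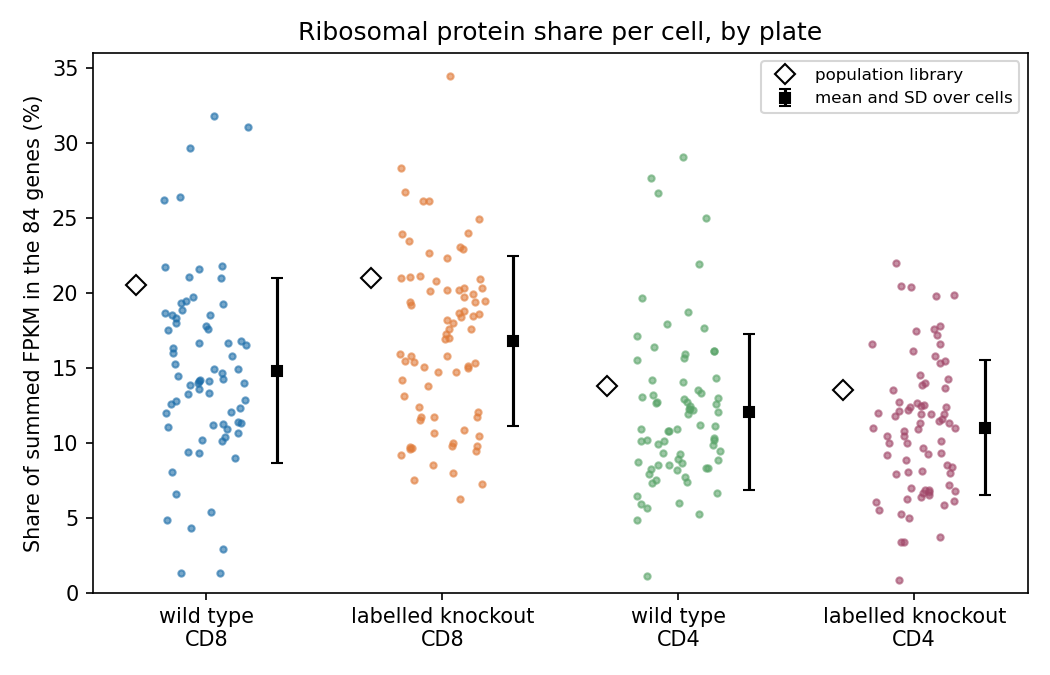
Share of summed FPKM held by the 84 genes (y axis, percent) on each plate (x axis): points are kept cells, squares with bars the mean and SD over cells, open diamonds the population library of that plate. Both CD8 means (14.8% and 16.8%) lie above both CD4 means (12.05% and 11.01%), and the population libraries lie above the mean of their plate's cells.

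Within the CD4 plates the share also went with Foxp3, the factor that defines regulatory T cells. The 27 wild-type CD4 cells with Foxp3 at 1 FPKM or more had a mean share of 9.96% ± 4.41 (SD), against 13.2% ± 5.33 in the other 47. On the CD4 plate labelled knockout the 37 cells with Foxp3 had 9.10% ± 3.85 and the other 41 had 12.7% ± 4.36. Without the cells with Foxp3, an alternative chosen after seeing the data, the CD4 minus CD8 difference of the share was -2.82 points. Cells are not replicates, so no p is given for these.

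Among kept cells the share was nearly free of the number of genes detected, with a Pearson r between -0.086 and 0.155 within plates. The mean log2 level of the members did follow that number, with r = 0.603 over all kept cells. Wells left out for too few detected genes had lower shares. The median there was 3.97% and 1.09% on the CD8 plates and 2.48% and 1.64% on the CD4 plates, wild type before knockout. Fewer than 42 members were detected in 5 kept wild-type CD8 cells, 1 CD8 cell labelled knockout, 2 wild-type CD4 cells and 2 CD4 cells labelled knockout. The 5 wild-type CD8 cells had a median of 1127 detected genes and 2 of 10 T cell markers, against 9 of 10 in the other cells of the plate.

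Members were among the few genes detected in the no-cell wells. In the well of the wild-type CD8 plate, 11 genes were at 1 FPKM or more, among them Rpl12 at 938 FPKM and Rpl14 at 640 FPKM. In that of the CD8 plate labelled knockout, 8 genes were detected, with Rpl10a at 606 FPKM and Rpl8 at 583 FPKM. The well of the wild-type CD4 plate had 26 detected genes, with Rps16 at 3377 FPKM and Rpl8 at 2409 FPKM, and that of the CD4 plate labelled knockout had 6, with Rpsa at 2040 FPKM. All members together made up 40.8%, 22.996%, 17.1% and 54.3% of the wells' summed FPKM in the same order. The members' sum in a no-cell well was 1577, 1189, 5786 and 7170 FPKM, whereas a cell of the same plate had a median of 146583, 126813, 79791 and 73463 FPKM. Since FPKM is scaled within a well, these values do not give an amount of RNA, and only 1 well per plate was available.

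Most members were found in most cells. A median of 78, 77, 72 and 71 of the 84 members were detected per cell on the wild-type CD8 plate, the CD8 plate labelled knockout, the wild-type CD4 plate and the CD4 plate labelled knockout. On the same plates 74, 74, 67 and 61 members were detected in 80% or more of cells, and 5, 5, 6 and 8 in under 50%. The small and large subunits kept a steady ratio: summed small-subunit FPKM was 0.756, 0.778, 0.748 and 0.731 of the large-subunit sum, in the same order. Over all kept cells the mean log2 levels of the small- and large-subunit members had r = 0.963, a correlation across cells that share plate and depth.

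Among the highest mean levels, averaged over plates, were those of Rps4x (11.31 log2), a small-subunit protein encoded on the X chromosome, Rplp0 (11.11 log2), the base of the stalk that recruits translation factors, Rpl19 (11.004 log2) and Rpl4 (10.84 log2). Rps4x had a median of 4933 FPKM in wild-type CD8 cells (lowest 0, highest 13438), 4151 in CD8 cells labelled knockout (0 to 14869), 3558 in wild-type CD4 cells (0 to 13404) and 2502 in CD4 cells labelled knockout (0 to 10860). Its population libraries had 10596, 12241, 6120 and 7191 FPKM in that order. Rplp0 had population values of 11028, 9488, 5364 and 6687 FPKM. For both genes the CD8 values were above the CD4 values in the population libraries and in the medians over cells. The order among these 4 is not resolved, since each had an SD over cells of 1.57 log2 or more on every plate. The 10 members with the highest population values held 24.4% of all member FPKM there.

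**Figure D2:**
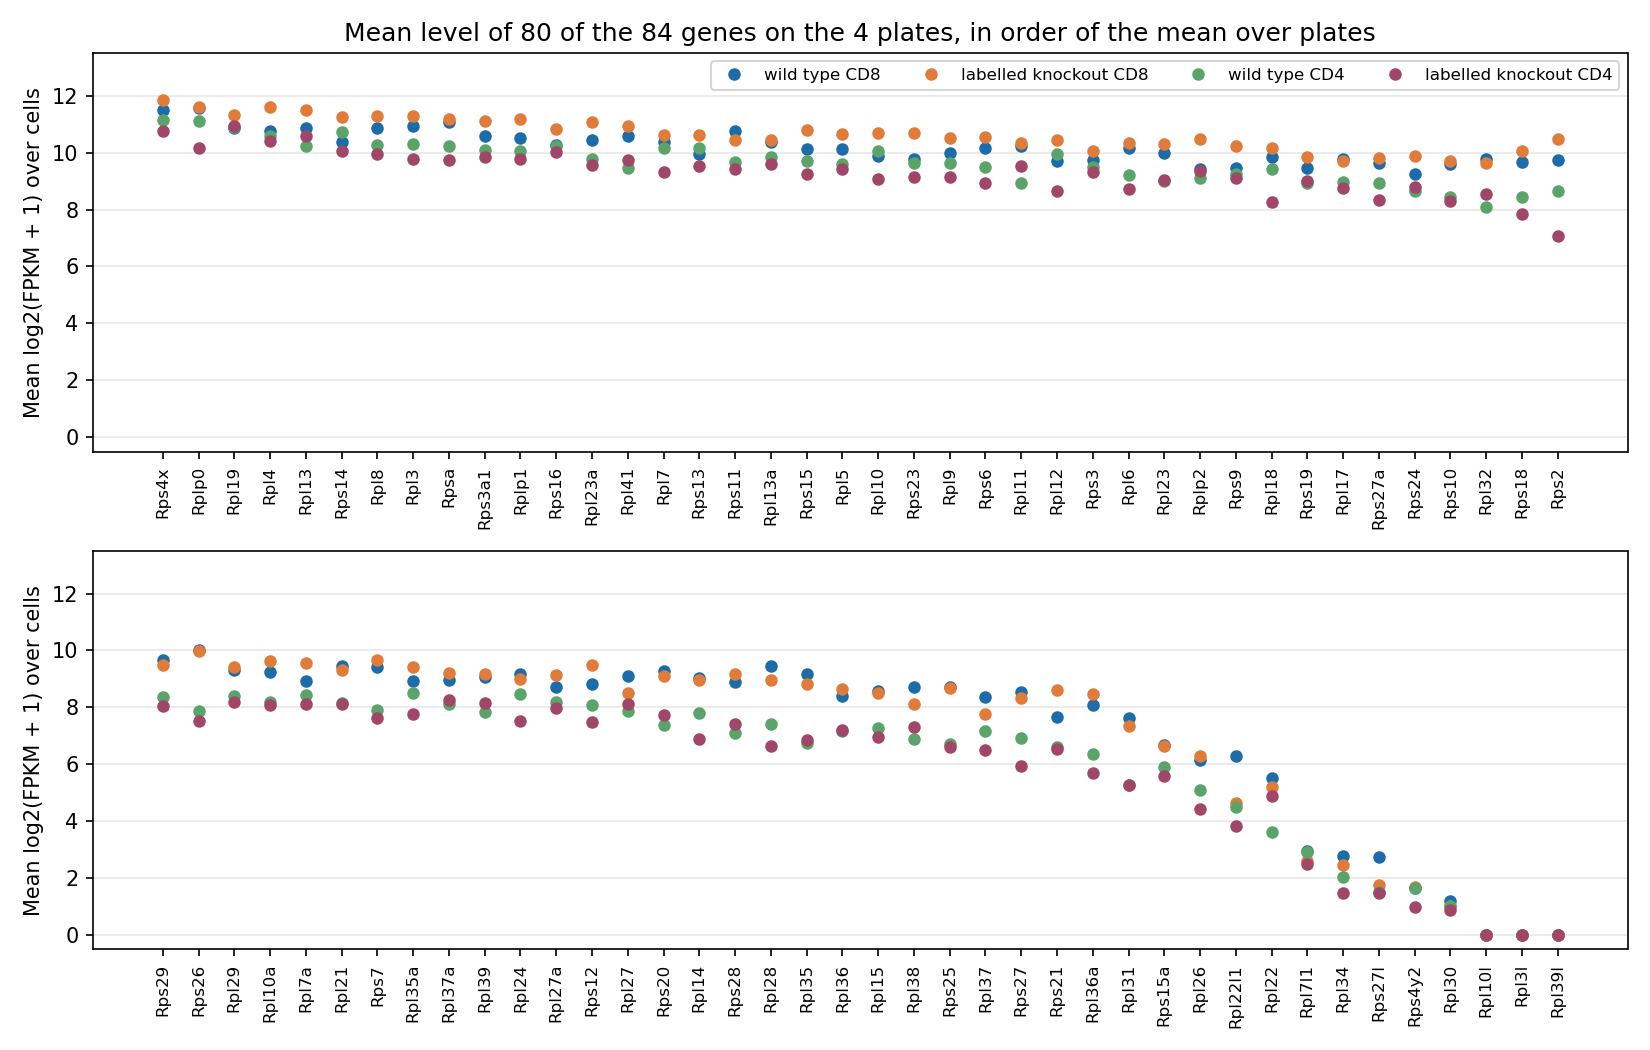
Mean log2(FPKM + 1) over kept cells (y axis) of 80 of the 84 genes (x axis, in order of the mean over plates), 1 point per plate. Most genes lie between about 7 and 11 log2 with the CD8 plates above the CD4 plates, and the last in the order, from Rpl7l1 to Rpl39l, drop to 3 log2 or less.

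The members that stood apart in level or detection, by the fences of 1.5 interquartile ranges over the members, were few. Detection was low for Rpl3l, Rpl10l, Rpl39l, Rpl30, Rps27l, Rpl34, Rpl22l1, Rps4y2, Rps27, Rpl26 and Rpl22, with a fence at 73.9% of cells and the nearest member inside at 78.5%. Mean level was low for 8 members, with a fence at 4.66 log2 and Rpl22 just inside at 4.81 log2: Rpl3l, Rpl10l, Rpl39l, Rpl30, Rps4y2, Rps27l, Rpl34 and Rpl7l1. No member lay above an upper fence in either measure.

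Rpl30, a large-subunit protein, was the ordinary member found least often. It was detected in 15.3%, 12.99%, 13.51% and 11.5% of cells by plate (11, 10, 10 and 9 cells), and its median was 0 FPKM on all 4 plates. Its highest values were 978, 727, 1713 and 940 FPKM. The population libraries had 144.03, 133.69, 181.75 and 147.65 FPKM, far under the median member, which was at 4491, 4119, 2145 and 2254 FPKM. GENCODE names 9 Rpl30 pseudogenes, and how reads of the gene and its copies were divided is not known here.

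Rpl34 and its pseudogene Rpl34-ps1 have separate entries in the table. The Rpl34 entry was detected in 52.8%, 51.9%, 47.3% and 29.5% of cells, while that of Rpl34-ps1 was detected in 86.1%, 93.5%, 87.8% and 75.6%. In the population libraries Rpl34 had 143.37, 103.35, 72.6 and 50.9 FPKM and Rpl34-ps1 had 4749, 3747, 2890 and 2695 FPKM. With both entries summed, detection was 87.5%, 94.8%, 89.2% and 79.5%, and the r with the other members rose from 0.29 to 0.626. Rps15a had a similar neighbour pair: its population values of 557, 412, 263.01 and 264.64 FPKM stood beside 597, 418, 262.72 and 286.96 for Rps15a-ps4 and 892, 641, 360 and 449 for Rps15a-ps6. Levels of Rpl34 and Rps15a taken alone are uncertain. In all, 60 members have pseudogenes named after them in GENCODE M21, up to 24 each for Rpl31 and Rps12.

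Of the 6 l-type relatives, Rpl3l, Rpl39l, Rpl10l and Rpl7l1 were lower than the members they resemble. Rpl3l, known from heart and skeletal muscle, was at 0 FPKM in every kept cell and every population library, while Rpl3 averaged 10.58 log2. Rpl39l was at 0 FPKM in every kept cell and at 5.09 FPKM in the CD4 population library labelled knockout, beside Rpl39 at 8.56 log2. Rpl10l, a testis copy of Rpl10, was detected in 1 of 77 CD8 cells labelled knockout at 1.80 FPKM and in no other kept cell, beside Rpl10 at 9.93 log2. For 0 of 72 cells the exact 95% interval of the share with detection reaches 4.99%. Rpl7l1, an assembly factor related to Rpl7, was detected in 79.2% to 83.3% of cells but at a median of only 3.155 to 4.05 FPKM, whereas Rpl7 averaged 10.13 log2.

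Rpl22l1 and Rps27l were the l-type members with real levels. Rpl22l1, a paralog that can take the place of Rpl22, was detected in 75%, 57.1%, 54.1% and 48.7% of cells, and its population libraries had 971, 1182, 539 and 455 FPKM. Rpl22 was detected in more cells, 80.6%, 81.8%, 58.1% and 73.1%, yet its population values of 277.66, 322.01, 211.44 and 239.06 FPKM were under those of Rpl22l1 on all 4 plates. Both values are per length. Rps27l, a p53-induced relative of Rps27, was detected in 33.3%, 23.4%, 21.6% and 17.9% of cells, with population values of 626, 484, 161.33 and 136.81 FPKM. Rps27 itself was at 5308, 6510, 2813 and 4197 FPKM in the population libraries but was detected in only 77.8%, 76.6%, 66.2% and 57.7% of cells.

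Members moved together from cell to cell, and partly with other abundant genes. The mean of the members had r = 0.712 with the mean of 14 abundant non-ribosomal genes over all kept cells, and 0.917, 0.584, 0.670 and 0.557 within the wild-type CD8, knockout-labelled CD8, wild-type CD4 and knockout-labelled CD4 plates. The Pearson r of a member with the mean of the other members had a median of 0.668 over the 82 members with any value and a highest of 0.804. It was low for Rpl10l (0.08), Rpl7l1 (0.16), Rpl30 (0.23), Rps27l (0.28), Rpl34 (0.29) and Rpl22l1 (0.41 when rounded). The fence was at 0.4074, with Rpl22l1 just under it and Rps4y2 just inside at 0.4075, so Rpl22l1 and Rps4y2 were hardly apart. Low r went with low level in the plot of level against r. Rpl22l1 and Rpl22 lay beside each other in both measures, at 4.82 and 4.81 log2.

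**Figure D3:**
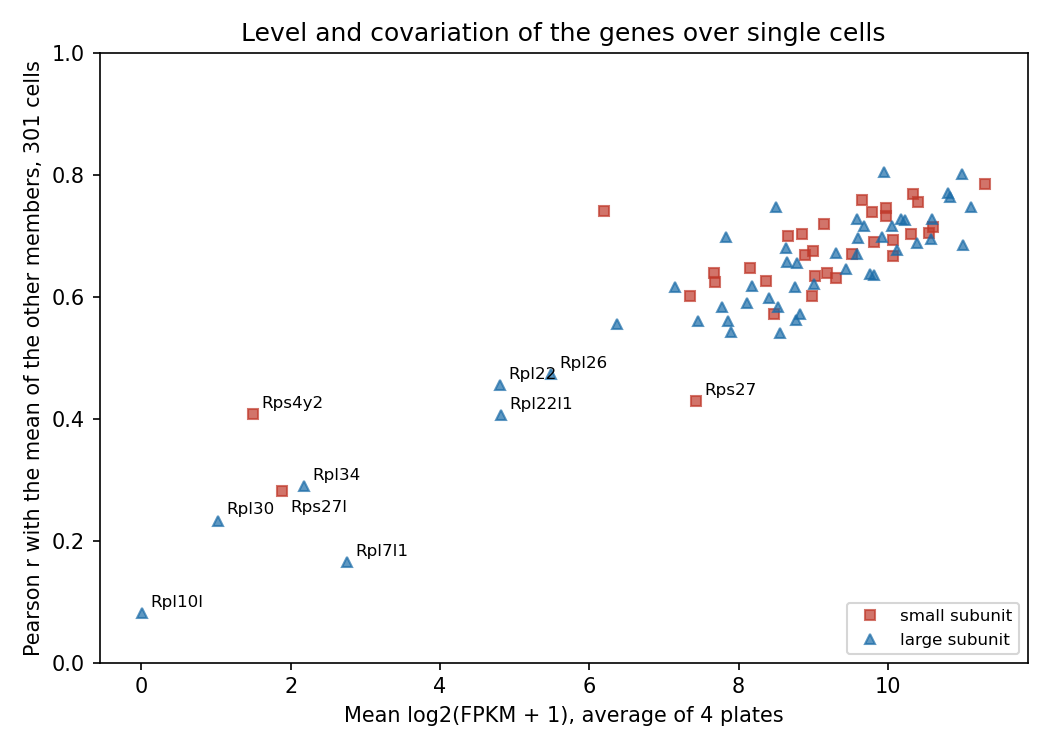
Pearson r of each gene with the mean of the other members over all kept cells (y axis) against its mean log2(FPKM + 1) over the 4 plates (x axis), with small-subunit genes as squares and large-subunit genes as triangles. The 82 genes with any value rise together, the named genes lie outside a lower fence of level, detection or r, and Rpl7l1 is low in r for its level.

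Rps2, a small-subunit protein, stood apart in another measure, chosen after its values were seen. Mean FPKM over cells against the population library was -1.37 log2 for the median member, and it was 0.58 log2 for Rps2. Its mean over cells was 1818, 2531, 1261 and 870 FPKM, against population values of 1508, 1609, 483 and 726 FPKM. Rpl3l and Rpl10l, both near 0, were the others above the upper fence. GENCODE names 11 Rps2 pseudogenes, and their part was not tested.

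CD4 and CD8 cells were compared on the 4 plate means of log2(FPKM + 1), with the source as a term. No plate held both cell types, so cell type and plate cannot be told apart here. All 81 tested members were lower in CD4 cells, with a median difference of -1.08 log2, against -0.27 log2 over all 8427 genes tested. By limma with Benjamini-Hochberg adjustment over those genes, 18 members were called lower at an adjusted p under 0.05 and 0 higher, also 0 higher at an unadjusted p under 0.05. The background was 6.32% of all genes called lower and 1.12% called higher. Of the small-subunit members 12 of 33 were called, and of the large-subunit members 6 of 48. Fewer cells of a kind and less RNA per cell cannot be told apart in the population wells.

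Rps26, a small-subunit protein at the messenger RNA exit, fell by 2.30 log2 (SE 0.48; limma adjusted p = 0.00028). Its medians were 1873 and 1336 FPKM in CD8 cells, wild type before knockout, and 579 and 496 FPKM in CD4 cells, each plate holding cells at 0, with highest values of 9775, 6231, 3491 and 5210 FPKM. Population values were 7612 and 5739 FPKM in CD8 against 2231 and 2091 FPKM in CD4. Single cells overlapped, but Rps26 was lower on both CD4 plates by close to the same amount, -2.15 and -2.44 log2 in the 2 sources.

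Rps2 fell by 2.25 log2 (SE 0.48, limma adjusted p = 0.0003), and here the sources were unlike: -1.08 log2 in the wild-type source and -3.42 log2 in the source labelled knockout. The SE and p rest on a spread taken from all genes by level, so they do not reflect this gap between the sources. Its medians were 1613 and 1835 FPKM in CD8 cells and 942 and 648 FPKM in CD4 cells, wild type before knockout. Rpl36a, a large-subunit protein encoded on the X chromosome, fell by 2.24 log2 (SE 0.56; limma adjusted p = 0.0036) and Rpl31 by 2.21 log2 (SE 0.58; limma adjusted p = 0.0061). Further called members, named after their values were seen, were Rpl35, Rpl28, Rps25, Rps27, Rps7, Rps28, Rps18, Rps20, Rpl14, Rpl32 and Rpsa, with differences from -2.20 log2 for Rpl35 to -1.14 log2 for Rpsa.

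The members that differed least were Rpl7l1 (-0.09 log2), Rpl30 (-0.17 log2), Rpl19 (-0.18 log2), Rps4y2 (-0.36 log2) and Rps16 (-0.41 log2). Rpl19 is an ordinary large-subunit member of high level: its medians were 3617 and 3442 FPKM in CD8 cells and 2492 and 2522 FPKM in CD4 cells, and its population libraries had 7931 and 8411 FPKM in CD8 and 5820 and 6856 FPKM in CD4. Rps16 had medians of 2376 and 2245 FPKM in CD8 cells and 1619 and 1338 FPKM in CD4 cells. None of these 5 passed the test, which does not show that they were equal.

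The direction was the same in both sources and in the population libraries. Within the wild-type source 76 of 81 members were below 0, with a median of -0.77 log2. Of all 8427 genes 6390 were below 0 there, with a median of -0.34 log2, and 65 members lay under that median. Within the source labelled knockout 81 of 81 members were below 0, with a median of -1.37 log2. There 5614 of all genes were, with a median of -0.18 log2, and 79 members lay under it. In the population libraries 80 of 81 were lower in CD4 by the average of both sources, with a median of -0.87 log2, and Rpl30 was the exception. Of all genes 4536 were lower in these libraries, with a median of -0.08 log2. The number of calls was far less steady. With the median difference of all genes subtracted, 78 of 81 members stayed below 0 (all but Rpl19, Rpl30 and Rpl7l1) with a median of -0.81 log2, 9 were called lower and 0 higher, and the calls over all genes went from 6.32% lower and 1.12% higher to 1.72% lower and 2.09% higher. Without the term for source 2 members were called, in the population libraries 1, without cells with Foxp3 4, and among cells with 2000 or more detected genes or with a pseudocount of 10 none. Without cells holding markers of other cell types none were called (11 of all genes), though the median difference was wider, at -1.23 log2. Such cells had a melanoma (other than Tyr), myeloid, B cell or stromal marker, or Cd4 on a CD8 plate or Cd8a on a CD4 plate. NK cell markers did not count.

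**Figure D4:**
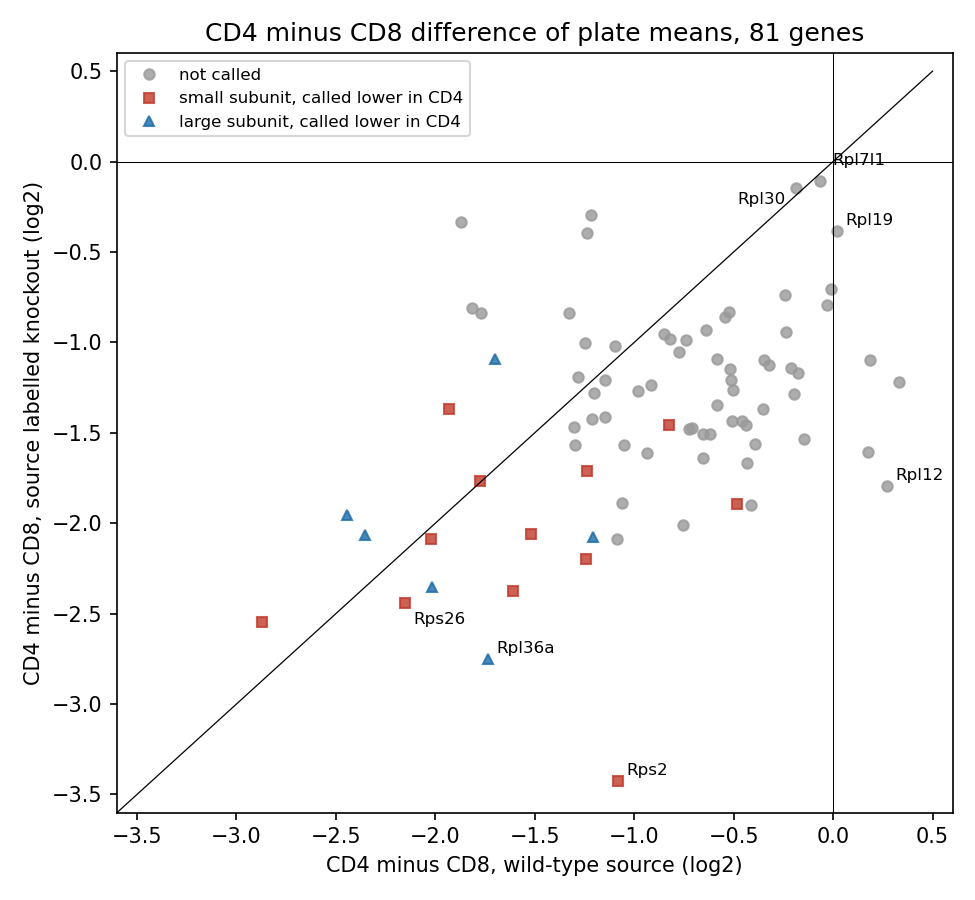
CD4 minus CD8 difference of plate means of log2(FPKM + 1) in the wild-type source (x axis) and in the source labelled knockout (y axis) for 81 genes, with the line of equality. Red squares (12) and blue triangles (6) are the small- and large-subunit genes called lower by limma, all points lie below 0 on the y axis, and 5 lie to the right of 0 on the x axis.

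Other genes of the translation machinery, from lists chosen with earlier results of these data known, were also mostly lower in CD4 cells, as were 6496 of all 8427 genes tested, with 6.32% of all genes called lower. Of 39 translation initiation factors, 7 were called lower and 0 higher (median -0.93 log2), among them Eif3k (-1.89 log2), a subunit of the large initiation complex eIF3, and Eif6 (-1.45 log2), which keeps the subunits apart. Of 7 elongation factors, 2 were called lower (median -0.87 log2): Eef1g (-2.24 log2) and Eef1d (-1.97 log2), both parts of the exchange complex that reloads the elongation factor. Of 51 ribosome assembly factors, 15 were called lower (median -0.62 log2), including Nop56 (-2.23 log2), a core protein of the particles that methylate ribosomal RNA, and Npm1 (-2.18 log2), a nucleolar chaperone. Of 75 mitochondrial ribosomal protein genes, 11 were called lower (median -0.69 log2). Without the source term the calls fell to 0 initiation factors, 1 elongation factor, 1 assembly factor and 0 mitochondrial ribosomal protein genes. Of all genes 50 were then called lower.

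Of 21 regulators of ribosomal protein synthesis and translation 1 was called lower, Myc, a factor that drives ribosome production, at -1.17 log2. This share is below the background of 6.32%, and without the source term 0 of the 21 were called lower. None of 9 rescue and quality control genes and none of 14 abundant non-ribosomal genes were called in either direction, with medians of -0.28 and -0.08 log2. The 6 tested ribosome partners outside the rule, among them Fau and Gnb2l1 (RACK1), had a median of -1.04 log2 and 0 calls. The named genes of these lists, other than the partners, were picked after their values were seen. Within the list of abundant genes, 8 of 14 were below 0, against 81 of 81 members.

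Between the plates by genotype label, the members differed little in CD8 cells. Their median was 0.25 log2, labelled knockout minus wild type, with 56 of 81 above 0 and a range from -1.63 to 1.06 log2. All 8117 genes tested had a median of -0.22 log2. Past a difference of 1 log2, 1 member was higher and 1 lower, where the background was 2.07% of genes higher and 9.19% lower. With 1 plate per group there is no replicate check and no test. The population libraries gave a median of -0.10 log2, with 57 of 81 lower.

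Rplp2, a protein of the ribosomal stalk, was the member past 1 log2 higher, at 1.06 log2. In wild-type CD8 cells its median was 1453 FPKM (0 to 3638, detected in 90.3%), and in the 77 labelled knockout, which all had it, 1570 FPKM (331.5 to 3790). Its medians were thus close, and the difference came with cells at 0 on the wild-type plate. Its pseudogene Rplp2-ps1 has a separate entry. With both entries summed the difference was 0.86 log2, under the cut of 1 log2, and detection in wild-type CD8 cells was 95.8%. Rpl22l1 was the member past 1 log2 lower, at -1.63 log2, with a median of 256.95 FPKM in wild-type CD8 cells and 93.2 FPKM in those labelled knockout. The population libraries of Rpl22l1 went the other way, 971 FPKM in wild type and 1182 FPKM in knockout. Rps27l followed at -0.97 log2, and its population values of 626 and 484 FPKM had the same order. Rpl27 (-0.59 log2), Rpl38 (-0.59 log2) and Rpl37 (-0.61 log2) were the next lowest, and Rps21 (0.93 log2), Rps23 (0.89 log2), Rps14 (0.88 log2) and Rpl4 (0.84 log2) the next highest.

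The sign of the CD8 median changed with the cells kept and with the measure. With all kept cells and arithmetic means that median was -0.11 log2, with 65 of 81 members below 0. Without the 7 wild-type and 3 labelled-knockout CD8 cells that held fewer than 5 of 10 T cell markers, an alternative chosen after seeing the data, the median over members was -0.19 log2 with 62 of 81 below 0. Rplp2 then differed by 0.29 log2 and Rpl22l1 by -1.78 log2. Without cells holding markers of other cell types, which left 20 and 27 CD8 cells, the median was -0.75 log2, Rplp2 was at -0.09 log2 and Rpl22l1 at -5.69 log2.

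In CD4 cells the median over members was -0.26 log2, with 62 of 81 below 0, against -0.04 log2 over 7063 genes. It was -0.05 log2 with 44 of 81 below 0 without the cells with Foxp3, and -0.56 log2 without the cells holding markers of other cell types, both alternatives chosen after seeing the data. The population libraries had the other sign, with a median of 0.12 log2 and 55 of 81 members higher in the library labelled knockout. Past 1 log2, 1 member was higher and 3 were lower, where the background was 2.53% of genes higher and 2.51% lower. Rpl22, whose loss is known to disturb development of the alpha-beta T cell lineage, was higher by 1.25 log2. Detection was 58.1% on the wild-type plate (exact 95% interval 46.1 to 69.5) and 73.1% on the plate labelled knockout (interval 61.8 to 82.5), and the medians were 25.2 and 65.1 FPKM. Its population libraries differed less, at 211.44 and 239.06 FPKM.

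Rps2 was lower by 1.60 log2 in CD4 cells labelled knockout, a difference of -1.60 that turned to 0.59 log2 in the population libraries (483 FPKM in wild type, 726 in knockout). Rpl12, a protein of the stalk base, was at -1.32 log2 and Rpl18 at -1.16 log2. Their population libraries hardly differed: 3193 and 3131 FPKM for Rpl12 and 2357 and 2034 FPKM for Rpl18. Without cells with Foxp3 the differences were -0.88 log2 for Rps2, -0.58 log2 for Rpl12 and -0.46 log2 for Rpl18. Rps27 (-0.99 log2) and Rpl10 (-0.96 log2) were the next lowest, and Rpl11 (0.60 log2), Rpl32 (0.48 log2) and Rpl38 (0.42 log2) were among the next highest. No member was past 1 log2 in opposite directions in CD8 and CD4 cells.

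**Figure D5:**
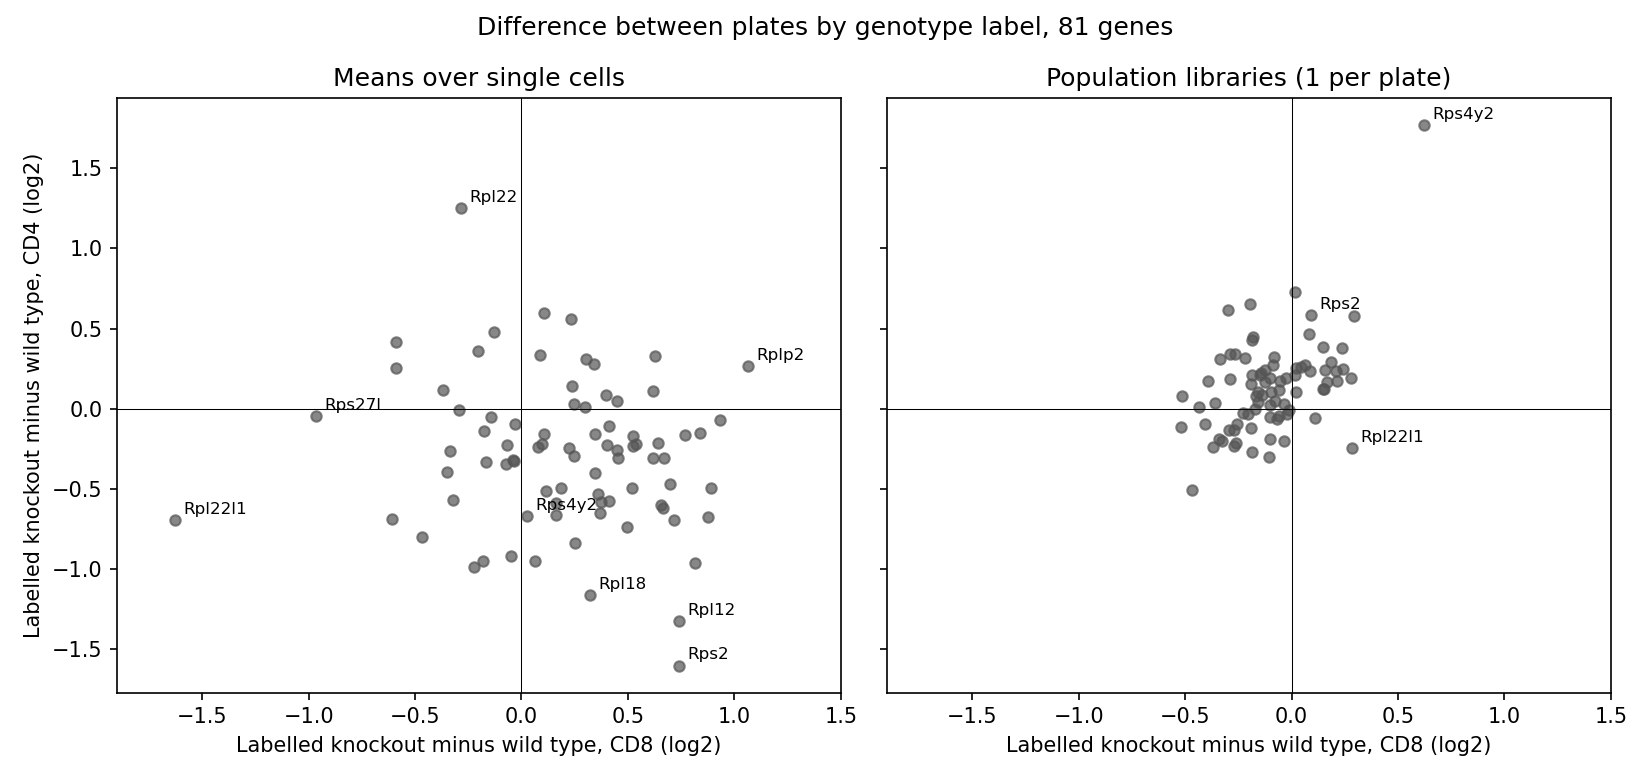
Labelled knockout minus wild type in CD8 cells (x axis) and CD4 cells (y axis) for 81 genes, as differences of means of log2(FPKM + 1) over single cells (left) and as differences between single population libraries (right). On the left Rplp2, Rpl22l1, Rpl22, Rps2, Rpl12 and Rpl18 pass 1 log2 on an axis, and on the right most genes lie nearer 0, with Rps4y2 at 1.77 log2 in CD4.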

How the data were processed

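The authors deposited TMM-normalised FPKM per gene symbol and well. Bowtie, RSEM and mm10 appear in the submitters' processing notes, with no version given in what was used here. Where a read matches several genes RSEM shares it out by estimate, so genes with pseudogenes are uncertain. Detection means 1 FPKM or more, and cells needed 1000 detected genes. Shares are the members' FPKM over the summed FPKM of a well. Levels are means of log2(FPKM + 1), which understate changes of low genes. The cell types were compared by limma 3.58.1 (R 4.3.3, moderated with a trend) on 4 plate means with a term for source. This leaves 1 residual degree of freedom, and the prior degrees of freedom were infinite. The spread was thus read from a trend with level over all genes, about 0.36 log2 at mean level. A gene's own gap between the sources had no weight in its SE, and p-values do not measure the spread between mice. The fit was run on simulated plate means with the same spread for every gene. That run cannot show how the fit does where spreads differ between genes. Genotype has 1 plate per group and no test. Positions and pseudogene names are from GENCODE M21 (GRCm38), sequences from RefSeq.

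Named members are those outside fences of 1.5 interquartile ranges in detection, level or r, the 5 highest in level, the 5 most positive and most negative in each comparison, those in a no-cell well, and the l-type members with their relatives. The members and lists were chosen with earlier results of these data known. A few members and a related gene are not reported here by name, though they stay in all counts and medians.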

Additional observations from a re-analysis of the deposited data

Results flagged for a closer look

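The difference between plates by genotype label had opposite signs in CD8 and CD4 cells. For the share of summed FPKM held by the members, labelled knockout minus wild type was 2.00 percentage points in CD8 and -1.04 percentage points in CD4. For the median over members of the log2 difference it was 0.25 in CD8 and -0.26 in CD4. The difference between the cell types was not tested, since each rests on 1 plate per genotype and cell type. In the population libraries the share differed by 0.436 points in CD8 and -0.266 points in CD4. The median over members of the log2 difference in the population libraries had the opposite signs to the single cells, -0.10 in CD8 and 0.12 in CD4.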

How the results depend on the processing

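The CD4 minus CD8 median of the members was below 0 under every setting run, from -1.37 log2 in the source labelled knockout alone to -0.70 log2 with arithmetic means. The 40 named members that were tested were below 0 in 547 of 559 values over 14 alternative settings, and 0 members were called higher under each of them. The 18 members called lower became 0 with 2000 or more detected genes, 0 without cells holding markers of other cell types (20, 27, 26 and 38 cells left), 0 with a pseudocount of 10, 7 with arithmetic means, 10 with a filter at 25% of cells, 1 in the population libraries, 4 without cells with Foxp3, 2 without the source term and 9 after centring. At an unadjusted p under 0.05 (limma) the settings with 0 calls had 64, 49 and 61 members lower. In the main fit 57 members and 1668 of all 8427 genes were lower at that cut. The number over all genes was not taken for the settings with 0 calls. The 533 genes called lower ranged from 9 to 519 under the alternatives, and the 94 called higher from 2 up to 2.09% of genes, after centring.

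The labelled knockout minus wild type median in CD8 cells, 0.25 log2, was 0.69 with 500 or more detected genes, -0.17 with 2000 or more, -0.21 with 1500 to 3000, -0.75 without cells holding other markers, -0.11 with arithmetic means, -0.10 in the population libraries and -0.19 without cells with fewer than 5 T cell markers. In CD4 cells, -0.26 log2 became 0.03 with 500 or more detected genes and 0.12 in the population libraries. Among single genes, Rplp2 turned to -0.086 in CD8 without cells holding other markers, and the population libraries turned Rpl22l1 to 0.28 in CD8 and Rps2 to 0.59 in CD4.

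The share in wild-type CD8 cells was 13.7% with 500 or more detected genes and 16.4% with 1500 to 3000, and in CD8 cells labelled knockout 15.6% without cells holding other markers. Without cells with Foxp3 it was 13.2% and 12.7% in CD4 cells, and CD4 minus CD8 was -2.82 points. The CD8 genotype difference of the share was 0.569 points with 1500 to 3000 detected genes and 0.0203 points without cells holding other markers. The cause was not tested. The settings without cells holding other markers, without cells with Foxp3 and without cells with few T cell markers were chosen after seeing the data. A planned version that also used Tyr, present in nearly every cell, left 0, 2, 0 and 0 cells and could not be fitted. The denominator without mitochondrially encoded genes and Malat1 left out 1 gene. The source term pairs the 2 plates of a source, read from the titles, and the calls with and without it are given above. Between single cells no paired analysis was possible because the well numbers are not shared between plates.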
